A study of Mus musculus with 6 samples.

Results

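The 4 Hox clusters of the mouse were followed through RNA sequencing of distal colon. Members were all protein-coding rows of the deposited count table whose symbol was Hox, a cluster letter a to d and a paralogue number. This gave 40 of 54532 rows and 39 symbols, since Hoxd4 had 2 rows. The samples were 3 libraries labelled wild-type (genotype WT; WT 1 to WT 3) and 3 labelled Itgbl1 -/- (KO 1 to KO 3). All animals of both groups had received 3% dextran sulfate sodium (DSS; 36 to 50 kDa), a polymer that injures the colonic epithelium, in drinking water for 7 days. Strain, age and the construction of the knockout allele are not given in the labels, and there was no group without DSS. Only distal colon was sampled, so the position of a gene along the gut could be read from its paralogue number but not measured between gut segments. The comparison the design implies is between these labels.

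Hox genes encode homeodomain transcription factors that give cells along the head-to-tail axis their position. Each cluster is a row of genes on 1 chromosome, with low paralogue numbers at one end, used in anterior parts of the body, and high numbers at the other end, used in posterior parts. In the gut the genes are set up in the embryo in mesoderm, in the epithelium and in the neural crest cells that form enteric neurons and glia, and many stay active in the adult. Hoxa13, Hoxb13 and Hoxd13 belong to the most posterior group and are known from the hindgut, the rectum and the urogenital tract.

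Total counts per library were 13326970 to 18321389, and all 6 libraries carried the same batch label. Itgbl1 itself had 19, 6 and 5 reads under WT and 12, 4 and 10 under KO. The counts thus gave no check of the genotype, and directions are between labels. The labels number the replicates 1 to 3 without saying that each was a separate mouse. The p-values measure the spread among these libraries, which may be technical. KO 3 stood apart, with 12.8% of its counts from mitochondrially encoded genes against 3.53 to 4.88% in the other libraries. The summed level of 10 epithelium markers was 15007, 21080.5 and 16156 CPM (WT) and 1148, 7548 and 58.5 CPM (KO), where CPM is a read count relative to the library size after TMM scaling between libraries. Here and below, values marked WT and KO stand in the order of replicates 1 to 3. In the wild-type libraries the small intestinal genes Lct and Sis had at most 4 reads and Gata4 at most 0.178 CPM. The 10 small intestinal markers together summed to 133, 245 and 175 CPM there, of which the glucose transporter gene Slc5a1 made up 84.5, 198 and 129.9 CPM.

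Because Hox genes resemble each other, the coding sequences were compared first to see how far reads could be told apart. The homeobox, the 180 bases that encode the DNA-binding domain, is shown for the posterior members on which the results turn, read from the GENCODE M21 transcripts (GRCm38). Capitals mark the bases that differ from Hoxa13 at the same position.
Hoxa13: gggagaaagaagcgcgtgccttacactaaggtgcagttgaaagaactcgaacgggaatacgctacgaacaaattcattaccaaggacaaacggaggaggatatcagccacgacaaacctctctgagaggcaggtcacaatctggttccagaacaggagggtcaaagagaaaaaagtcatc
Hoxb13: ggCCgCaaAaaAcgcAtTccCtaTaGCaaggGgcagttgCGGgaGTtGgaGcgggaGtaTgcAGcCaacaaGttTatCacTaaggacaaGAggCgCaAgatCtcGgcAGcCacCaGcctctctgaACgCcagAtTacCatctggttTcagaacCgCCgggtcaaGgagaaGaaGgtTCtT
Hoxd13: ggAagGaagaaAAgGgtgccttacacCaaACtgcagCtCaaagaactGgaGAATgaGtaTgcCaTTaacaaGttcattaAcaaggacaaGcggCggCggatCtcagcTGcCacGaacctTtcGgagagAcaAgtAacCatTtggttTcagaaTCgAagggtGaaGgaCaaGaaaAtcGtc
The Hoxb13 homeobox differed from that of Hoxa13 at 56 bases (68.9% identity), with no identical run over 9 bases. Hoxd13 differed at 47 bases (73.9% identity), with no identical run over 11 bases. Among the 325 pairs of the 26 members tested below, 13 pairs shared an identical run of 30 bases anywhere in their transcripts, 1 pair, Hoxa6 and Hoxb4, shared a run of 50 bases, and none shared 75 bases. Overlap on the genome was common: in GENCODE M21, 23 members shared no exon base with another gene of the table, 16 did, and 1 row of Hoxd4 was not in that annotation. The overlap covered 62.8% of the exon bases of Hoxd3, 52.9% of Hoxb3, 35.0% of Hoxa11, 27.3% of Hoxb2 and 27.1% of Hoxa3. Hoxa13, Hoxb13, Hoxd13, Hoxb9, Hoxd8 and the genes from Hoxb6 to Hoxb8 had none.

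Of the 40 rows, 26 passed the filter on low counts and were tested, 10 had reads but too few to be tested, and 4 (Hoxc6, Hoxc10, Hoxc13 and 1 row of Hoxd4) had 0 reads in all 6 libraries. A count of 0 allows up to 3 reads, which is 0.148 to 0.233 CPM depending on the library. With edgeR's quasi-likelihood test 0 of the 26 passed an adjusted p of 0.05, as did 0% of all 16861 genes tested. At an unadjusted p under 0.05 there were 15 members (57.7% of those tested), 7 higher and 8 lower under the knockout label. The same count over all genes was 24.1%, with 11.8% higher and 12.3% lower. In 17 members (65.4%) the 3 KO libraries lay wholly to one side of the WT libraries, of which 7 stood above and 10 below the wild-type libraries, against 32.3% of all genes, 15% above and 17.3% below. DESeq2 called 10 of the 28 members with an adjusted p at a value under 0.05, 3 higher and 7 lower, where it called 10.6% of all genes with an adjusted p (4.06% higher and 6.5% lower). The median log2 ratio of knockout to wild-type label was -0.27 over the members tested and 0.061 over all genes tested. That median joins genes that had opposite signs: 13 were positive and 13 negative. With WT 2, the library with the highest group 13 levels, left out, 8 members were under an unadjusted p of 0.05, as were 13.3% of all genes. The median of the members was then 0.047. With KO 2 left out, edgeR called 3 members (Hoxa13, Hoxb13 and Hoxb2) and 10.4% of all genes.

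**Figure D1:**
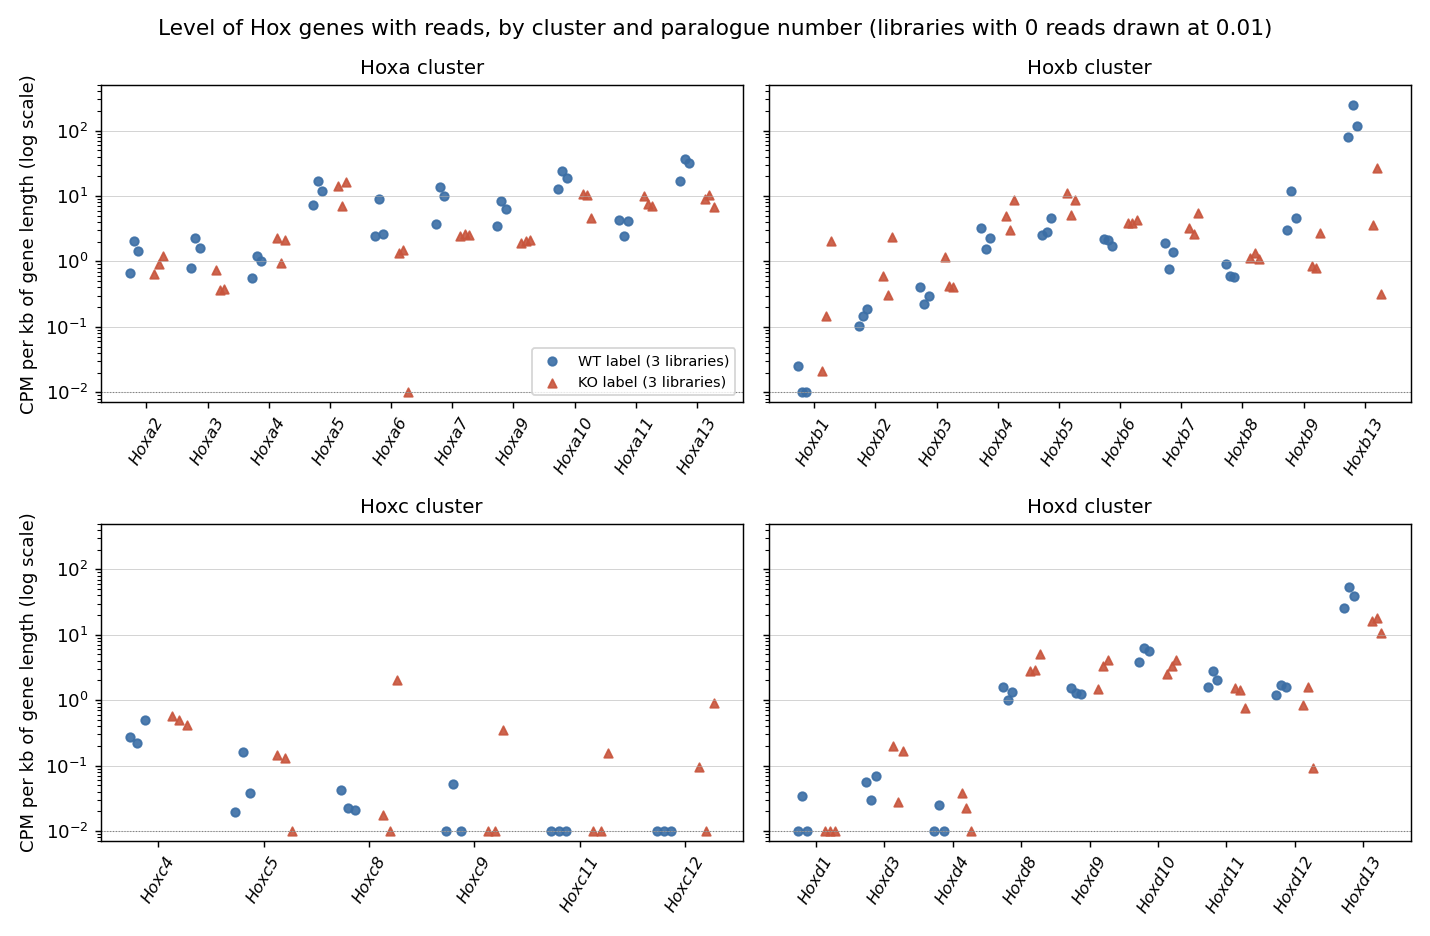
Level of Hox genes with reads, in CPM per kb of gene length on a log scale, by cluster and in order of paralogue number. Circles are the 3 wild-type libraries and triangles the 3 libraries labelled knockout, and libraries with 0 reads are drawn at 0.01. Group 13 genes were highest under the wild-type label, and in cluster B the libraries labelled knockout lay below the wild-type ones at Hoxb9 and Hoxb13 and above them at Hoxb5 to Hoxb8.

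Under the wild-type label the Hox signal was led by the posterior group. On the scale of levels per length, Hoxb13 was highest at 147 ± 85.5 CPM per kb (SD, n = 3), followed by Hoxd13 at 39.5 ± 14.5, Hoxa13 at 28.3 ± 10.1, Hoxa10 at 18.5 ± 5.61, Hoxa5 at 12.1 ± 4.98 and Hoxa7 at 9.18 ± 5.01 CPM per kb. These genes kept that order in each wild-type library, although the ranges of neighbours from Hoxd13 down overlapped. The last of the tested members were Hoxc4 at 0.335 ± 0.15, Hoxb3 at 0.307 ± 0.092 and Hoxb2 at 0.144 ± 0.0419 CPM per kb. Cluster C was nearly silent, with a sum over its 9 genes of 15, 20 and 25 (WT) and 42, 29 and 115 (KO) reads. Under the knockout label the order was another one: Hoxd13 led at 15 ± 3.98 CPM per kb, ahead of Hoxa5 at 12.6 ± 4.93 and Hoxb13 at 10.3 ± 14.5, with Hoxa13, Hoxa10, Hoxb5 and Hoxa11 between 8.16 and 8.67 CPM per kb.

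All 3 group 13 genes with reads lay lower in KO 1 to KO 3 than in any wild-type library. Hoxb13 (ENSMUSG00000049604, chromosome 11, 96194316 to 96197447, GRCm38), which marks the most distal hindgut, was at 178, 538 and 258 CPM (WT) and 7.96, 59.5 and 0.699 CPM (KO). The wild-type libraries themselves spanned a range of 178 to 538 CPM, and KO 3 was at 9 reads. Its mean was 325 ± 189 CPM for WT and 22.7 ± 32.1 CPM for KO (SD, n = 3 each). The log2 ratio was -3.83 ± 1.38 SE, which is a ratio of 0.0701 with a 95% interval of 0.00724 to 0.679. The adjusted p was 0.164 with edgeR and 0.00454 with DESeq2. Without KO 2 the log2 ratio was -6.27 (edgeR adjusted p = 0.0326), and it was -5.21 with limma-voom. Hoxa13 (chromosome 6, 52257694 to 52260880), needed for hindgut and limb ends, was at 42.1, 89.7 and 78.2 CPM (WT) and 21.9, 25.3 and 17.1 CPM (KO), a log2 difference of -1.71 ± 0.34 SE (edgeR adjusted p = 0.094, DESeq2 0.00196). Its edgeR adjusted p was the smallest of the members and equal to the smallest of all genes, a value that the adjustment gave to several genes. Hoxa13 was thus not first among all genes: its unadjusted edgeR p was 0.00146, against 0.000601 for Gata6, which shared the adjusted value. Hoxd13 (chromosome 2, 74668310 to 74671599), with known roles in digits and the anorectal muscle, was at 62.9, 135 and 96.2 CPM (WT) and 40.2, 45.2 and 26.2 CPM (KO). The log2 ratio came to -1.40 ± 0.36 SE (edgeR adjusted p = 0.105, DESeq2 0.0181). KO 1 to KO 3 lay close together in Hoxa13 and Hoxd13 and far apart in Hoxb13. In tissue RNA, fewer cells of a type and less RNA per cell cannot be told apart.

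Within the group, the libraries labelled knockout spread more widely in Hoxb13 than in Hoxa13 or Hoxd13. The ratio of Hoxb13 to Hoxa13 in CPM was 4.24, 5.99 and 3.3 (WT) and 0.363, 2.36 and 0.0409 (KO). The ratio of Hoxb13 to Hoxd13 was 2.84, 3.98 and 2.69 (WT) and 0.198, 1.32 and 0.0267 (KO). The ratio of Hoxa13 to Hoxd13 stayed within a narrow band, at 0.669, 0.664 and 0.813 (WT) and 0.544, 0.559 and 0.653 (KO). In all 3 ratios the libraries labelled knockout were below the wild-type ones, each with an exact two-sided permutation p of 0.1, the smallest that 3 against 3 allows, and 0.333 after adjustment over the 10 ratios tested. The order of the libraries labelled knockout, with KO 2 highest and KO 3 lowest, was the same in Hoxb13, Hoxa13, Hoxd13 and the epithelium markers. Per 1000 CPM of the 10 markers, Hoxb13 was at 11.9, 25.5 and 16 (WT) and 6.93, 7.89 and 12 (KO), with the groups overlapping (exact permutation p = 0.2). In KO 3 that value rests on 9 reads of Hoxb13. Hoxb13, like Hoxa13 and Hoxd13, lay below all wild-type libraries, and so did the marker sum. Dividing the one by the other can give overlap whatever the cause, so nothing is concluded from the overlap. Hoxa13 per 1000 CPM was at 2.8, 4.26 and 4.84 (WT) and 19.1, 3.35 and 292 (KO). Hoxd13 was at 4.19, 6.41 and 5.95 (WT) and 35, 5.99 and 448 (KO) (exact permutation p = 0.3 and 0.2). Both thus kept reads in KO 3, where the epithelium markers summed to 58.5 CPM. Without KO 3 the log2 ratios were -3.26 for Hoxb13, -1.59 for Hoxa13 and -1.22 for Hoxd13, and the part of the lower epithelium markers in them was not tested.

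**Figure D2:**
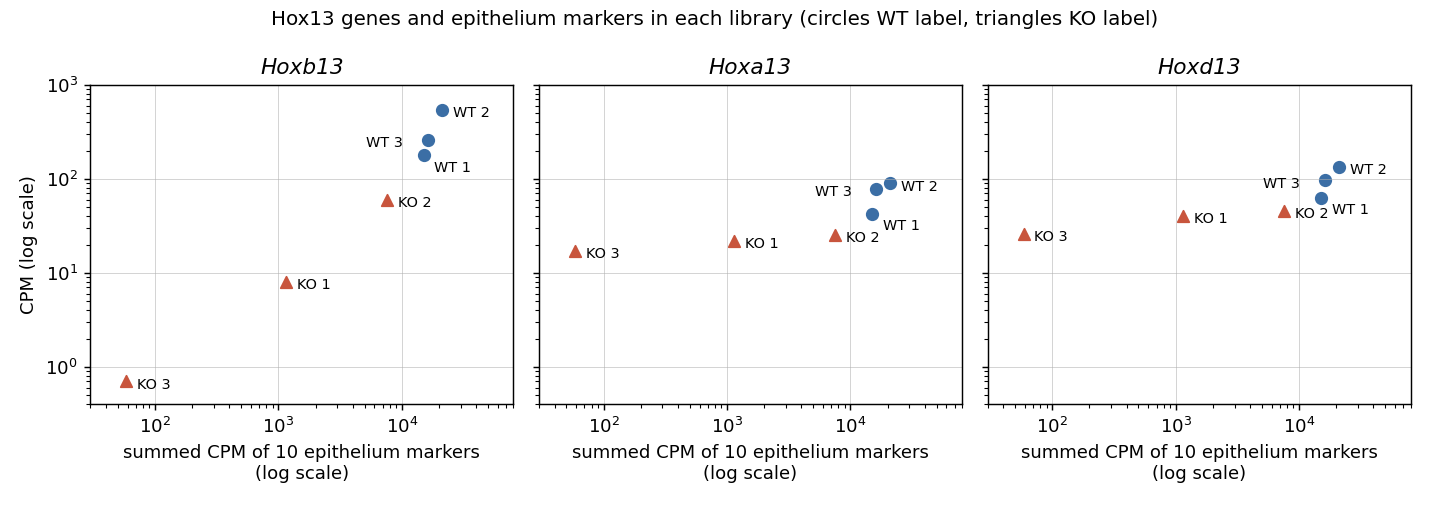
CPM of Hoxb13, Hoxa13 and Hoxd13 against the summed CPM of 10 epithelium markers in each library, both on log scales, with circles for the wild-type and triangles for the knockout label. Hoxb13 spanned from 538 CPM in WT 2 to 0.699 CPM in KO 3, while Hoxa13 and Hoxd13 were still at 17.1 and 26.2 CPM in KO 3.

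Paralogue groups 9 to 12 had mostly negative log2 ratios, with both signs inside clusters A and D. Hoxb9 was at 7.67, 30.8 and 11.9 CPM (WT) and 2.22, 2.06 and 6.92 CPM (KO). Its log2 ratio was -2.18 ± 0.71 SE, with -1.42 without WT 2 and -2.99 without KO 3. Hoxa9, known from blood progenitors and their leukaemias, was at 19.7, 47.2 and 35.2 CPM (WT) and 10.8, 11.3 and 12 CPM (KO), a log2 difference of -1.58 ± 0.35 SE. Neither gene overlapped between the labels, with edgeR adjusted p of 0.139 and 0.0983 and DESeq2 adjusted p of 0.0245 and 0.00657. In Hoxa9 the libraries labelled knockout differed by little, and in Hoxb9 KO 3 at 6.92 CPM came close to WT 1 at 7.67 CPM. Hoxd9 went the other way, at 3.33, 2.72 and 2.65 CPM (WT) and 3.11, 7.04 and 8.78 CPM (KO) (log2 ratio 1.12 ± 0.48 SE), with KO 1 inside the wild-type range.

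Hoxa10, known from the uterus and the posterior axis, was at 41.5, 78 and 62.3 CPM (WT) and 35.5, 33.4 and 15.2 CPM (KO). Hoxd10 was at 7.01, 11.5 and 10.3 CPM (WT) and 4.5, 5.95 and 7.46 CPM (KO). Their log2 ratios were -1.11 ± 0.40 SE and -0.68 ± 0.37 SE, without overlap in Hoxa10 and with KO 3 inside the wild-type range in Hoxd10. Hoxa11 was the member of groups 9 to 12 that stood above the wild-type libraries, at 9.69, 5.63 and 9.38 CPM (WT) and 23, 17.2 and 15.9 CPM (KO). The log2 ratio came to 1.18 ± 0.34 SE (edgeR adjusted p = 0.117, DESeq2 0.0587). This gene shares 35.0% of its exon bases with Hoxa11os on the opposite strand, and the strand setting of the counting is not given, so reads of the pair cannot be told apart there. Hoxa11os itself was at 25.9, 73.7 and 22.9 CPM (WT) and 15.5, 25.2 and 6.29 CPM (KO) (log2 ratio -1.38 ± 0.63 SE), the opposite direction to Hoxa11. Hoxd11 was at 6.77, 11.8 and 8.61 CPM (WT) and 6.57, 5.95 and 3.19 CPM (KO), narrowly below the wild-type libraries. Hoxd12 was at 3.09, 4.37 and 4.07 CPM (WT) and 2.17, 4.06 and 0.233 CPM (KO), with KO 2 inside their range. Their log2 ratios were -0.79 ± 0.42 SE and -0.82 ± 0.82 SE, and that of Hoxd12 was -1.69 without KO 2 and -0.31 without KO 3. Of the 8 tested members with numbers 9 to 12, 6 were negative and 2 positive, and 4 lay below and 1 above all wild-type libraries. Over all genes tested, 17.3% lay below and 15% above.

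Paralogue groups 4 to 8 had mostly positive log2 ratios, in cluster B without exception. Hoxb4, known from blood stem cells, was at 8.32, 3.99 and 5.96 CPM (WT) and 12.8, 7.66 and 22.7 CPM (KO). Hoxb5, which acts in the neural crest cells of the gut wall, was at 6.95, 7.72 and 13 CPM (WT) and 30.5, 14.2 and 24.6 CPM (KO). In Hoxb5 every library labelled knockout was above every wild-type one, and in Hoxb4 KO 2 lay below WT 1. Log2 ratios were 1.24 ± 0.49 SE and 1.32 ± 0.40 SE.
Hoxb6 was at 4.4, 4.11 and 3.42 CPM (WT) and 7.56, 7.61 and 8.47 CPM (KO). Hoxb7 was at 2.97, 1.2 and 2.18 CPM (WT) and 4.99, 4.0 and 8.63 CPM (KO). Hoxb8, known from blood and microglial precursors, was at 2.38, 1.58 and 1.53 CPM (WT) and 2.96, 3.55 and 2.88 CPM (KO). None of the 3 overlapped between the labels, with log2 ratios of 0.98 ± 0.33 SE, 1.46 ± 0.52 SE and 0.77 ± 0.43 SE. The edgeR adjusted p was 0.13 for Hoxb5 and 0.147 to 0.308 for these 3, and DESeq2 called none of the members from Hoxb4 to Hoxb8. Hoxd8 was at 4.4, 2.72 and 3.6 CPM (WT) and 7.76, 7.84 and 14.1 CPM (KO). Its log2 ratio was 1.46 ± 0.41 SE (edgeR adjusted p = 0.116, DESeq2 0.0381), with KO 3 highest. Without KO 3 the log2 ratios from Hoxb4 to Hoxb8 were 0.72, 1.24, 0.91, 1.06 and 0.81 in cluster order, and that of Hoxd8 was 1.10.

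Cluster A was divided over the same paralogue numbers, with Hoxa4 and Hoxa5 positive and Hoxa6 and Hoxa7 negative. Hoxa4 was at 0.891, 1.96 and 1.59 CPM (WT) and 3.66, 1.49 and 3.42 CPM (KO) (log2 ratio 0.94 ± 0.56 SE). Hoxa5, which patterns lung and gut mesenchyme, was at 13.7, 32.4 and 22.1 CPM (WT) and 26.9, 13.3 and 30.9 CPM (KO). Hoxa5 was the member with the smallest difference, a ratio of 1.04 with a 95% interval of 0.515 to 2.11, and its sign changed with the libraries used (log2 ratios from -0.24 to 0.36 with 1 library left out). Hoxa6, the shortest member at 874 bases, was at 2.14, 7.97 and 2.3 CPM (WT) and 1.19, 1.32 and 0 CPM (KO), with 0 reads in KO 3. Hoxa7 was at 10.8, 39.2 and 29.2 CPM (WT) and 7.02, 7.49 and 7.23 CPM (KO). Both lay below all wild-type libraries, with log2 ratios of -2.27 ± 1.09 SE and -1.86 ± 0.47 SE and DESeq2 adjusted p of 0.137 and 0.00816. Without WT 2 the log2 ratio of Hoxa6 was -1.41. Hoxc4 was the 1 tested member of cluster C, at 0.713, 0.57 and 1.3 CPM (WT) and 1.48, 1.26 and 1.09 CPM (KO) (log2 ratio 0.57 ± 0.54 SE). Of the 11 tested members with numbers 4 to 8, 9 were positive and 2, Hoxa6 and Hoxa7, negative, and the median log2 ratio was 0.94, against -0.80 for numbers 9 to 12 and -1.71 for group 13.

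**Figure D3:**
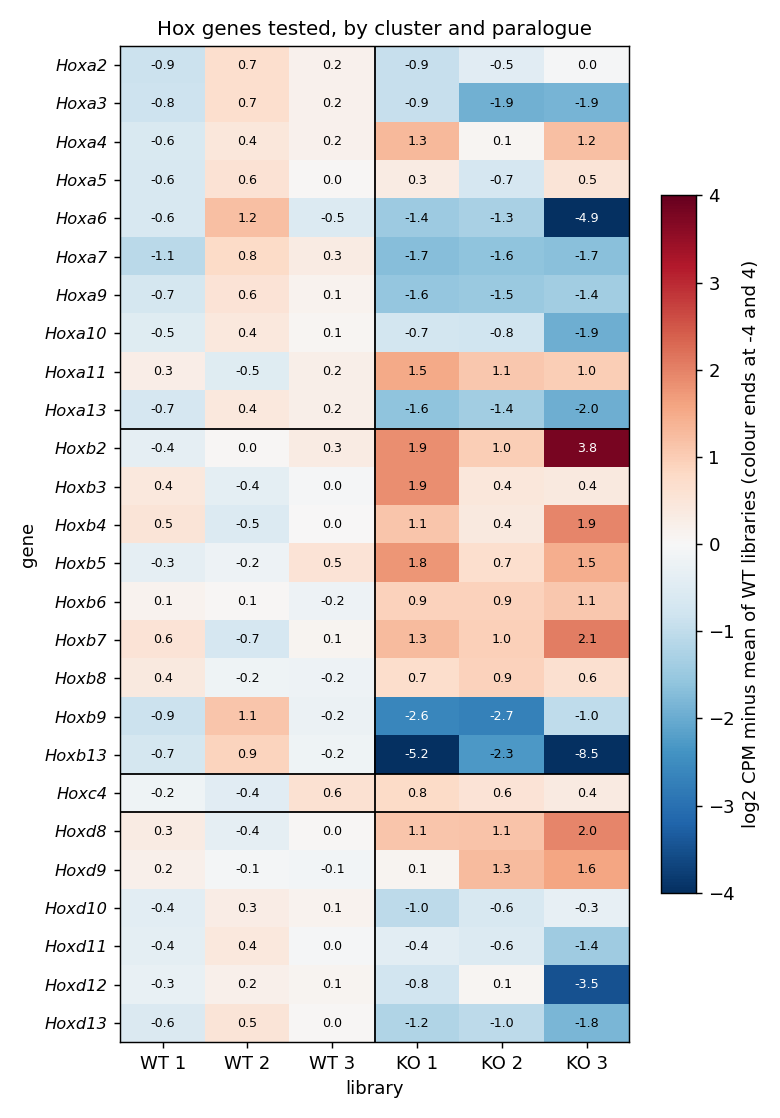
Log2 CPM of the 26 tested Hox genes in each library minus the mean of the wild-type libraries, by cluster and paralogue number, with the value printed in each cell and the colour ending at -4 and 4. In cluster B the sign under the knockout label turned between Hoxb8 (log2 ratio 0.77) and Hoxb9 (-2.18), and in cluster D between Hoxd9 (1.12) and Hoxd10 (-0.68).

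Among tested members the sign turned at one place in clusters B and D and repeatedly in cluster A. In cluster B the 7 tested members from Hoxb2 to Hoxb8 had positive log2 ratios and Hoxb9 and Hoxb13 negative ones. The ratio of Hoxb9 to its neighbour Hoxb8 was 3.23, 19.5 and 7.73 (WT) and 0.75, 0.581 and 2.41 (KO). In cluster D, Hoxd8 and Hoxd9 were positive and Hoxd10 to Hoxd13 negative. The ratio of Hoxd13 to Hoxd8 was 14.3, 49.6 and 26.7 (WT) and 5.18, 5.77 and 1.86 (KO). In cluster A, 7 of 10 tested members were negative, and the positive ones were Hoxa4, Hoxa5 and Hoxa11. The ratio of Hoxa13 to Hoxa11 was 4.34, 15.9 and 8.34 (WT) and 0.953, 1.47 and 1.08 (KO). These 3 ratios join a member that lay below all wild-type libraries with one that lay above them, so they are given as values without a test. Medians of the log2 ratios were -1.35 over cluster A, 1.11 over cluster B and -0.73 over cluster D.

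The make-up of the Hox signal inside a library does not depend on scaling between libraries. Of the reads per kb summed over all members, group 13 held 67, 74.5 and 68.5% (WT) and 25.9, 46.5 and 16.3% (KO). The mean was 69.99 ± 4.0% for WT and 29.6 ± 15.4% for KO (SD, n = 3 each). Numbers 4 to 8 held 14.6, 11.3 and 13.9% (WT) and 43.6, 26.4 and 52.7% (KO). Numbers 9 to 12 held 17.2, 13.1 and 16.3% (WT) and 27.3, 25.3 and 24.7% (KO). KO 2 was nearest to the wild-type libraries and KO 3 farthest from them in groups 13 and 4 to 8. Hoxb13 alone held 44, 54.3 and 42.8% (WT) and 3.26, 22.6 and 0.291% (KO). With Hoxb13 left out, group 13 still held 41.1, 44.3 and 44.9% (WT) and 23.4, 30.8 and 16.1% (KO), again without overlap, and numbers 4 to 8 held 26, 24.6 and 24.3% (WT) and 45.1, 34.1 and 52.9% (KO). Numbers 9 to 12 then held 30.7, 28.7 and 28.5% (WT) and 28.2, 32.6 and 24.8% (KO). The labels overlapped in that last share, so the higher share of numbers 9 to 12 under the knockout label was seen with Hoxb13 counted and not without it. The total Hox level without Hoxb13 was 103, 205 and 157 (WT) and 107, 92.3 and 109 (KO) in CPM per kb. That total overlapped between the labels.

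**Figure D4:**
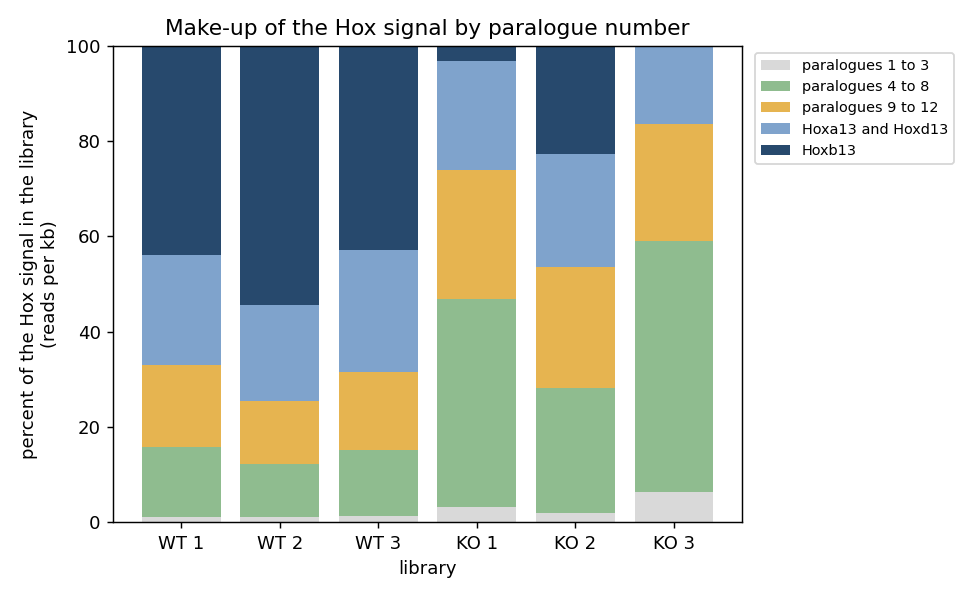
Share of each paralogue range in the Hox signal of each library, in percent of the reads per kb summed over all 40 rows, with group 13 split into Hoxb13 and the other members. Group 13 took 67.0 to 74.5% in the wild-type libraries and 16.3 to 46.5% in the libraries labelled knockout.

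The most anterior groups, 1 to 3, together held a small share of the Hox signal in every library, 1.08 to 6.25%. KO 3 stood out in Hoxb1 and Hoxb2. Hoxb2 was at 0.357, 0.506 and 0.649 CPM (WT) and 2.12, 1.09 and 8.32 CPM (KO), a log2 difference of 2.90 ± 0.85 SE (edgeR adjusted p = 0.123, DESeq2 0.0176), without overlap between the labels, and its log2 ratio was 1.63 without KO 3. Hoxb1, a gene of the embryonic hindbrain that had too few reads to be tested with edgeR, had 1, 0 and 0 reads (WT) and 1, 6 and 61 reads (KO) (DESeq2 adjusted p = 0.0175). Hoxb3 was at 1.72, 0.949 and 1.24 CPM (WT) and 4.94, 1.77 and 1.71 CPM (KO), with KO 3 inside the wild-type range. Log2 ratios were 1.11 ± 0.60 SE for Hoxb3 (0.42 without KO 1), -0.59 ± 0.57 SE for Hoxa2 and -1.64 ± 0.53 SE for Hoxa3. Hoxa2 was at 1.19, 3.67 and 2.54 CPM (WT) and 1.14, 1.6 and 2.18 CPM (KO). Hoxa3, needed for thymus and parathyroid, was at 4.75, 13.5 and 9.49 CPM (WT) and 4.45, 2.17 and 2.25 CPM (KO), below all wild-type libraries (DESeq2 adjusted p = 0.044). Hoxd1, Hoxd3 and Hoxd4 had at most 17 reads in a library.

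Members of cluster C beyond Hoxc4 and Hoxc5 had most of their reads in KO 3. Hoxc8, a gene of the thoracic and lumbar axis, had 2, 1 and 1 reads (WT) and 1, 0 and 74 reads (KO). Hoxc9 had 0, 2 and 0 reads (WT) and 0, 0 and 11 reads (KO). Hoxc12 had 0, 0 and 0 reads (WT) and 2, 0 and 12 reads (KO), and Hoxc11 had 4 reads, all in KO 3. Summed over the genes from Hoxc8 to Hoxc13, the level was 7.85 CPM in KO 3 and at most 0.19 CPM in any other library, although KO 3 was the library with the fewest counts. These genes were named after their values were seen, and a pattern in 1 library has no replicate. Markers of other cell types stood apart in KO 3 as well. The summed leukocyte markers were at 5929 CPM in KO 3 and 236 to 1514 CPM in the other libraries, but in KO 3 the neutrophil genes S100a8 and S100a9 made up 2440.4 and 3116 CPM of that sum. The other 8 leukocyte markers summed to 372 CPM in KO 3, inside the range of 233 to 617 CPM of the others. The urogenital markers summed to 15.2 CPM in KO 3 and 2.67 to 9.94 CPM in the others, and the smooth muscle markers to 1653 CPM in KO 3 and 3429 to 5696 CPM in the others. Of the 10 urogenital markers, Svs2, Svs4, Svs5 and Pbsn, genes of male accessory glands, had 32, 67, 33 and 18 reads in KO 3 and at most 6 reads in any other library, and Pax2 was at 0 in all 6 libraries. The part of these tissues in the Hox reads of KO 3 was not tested.

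**Figure D5:**
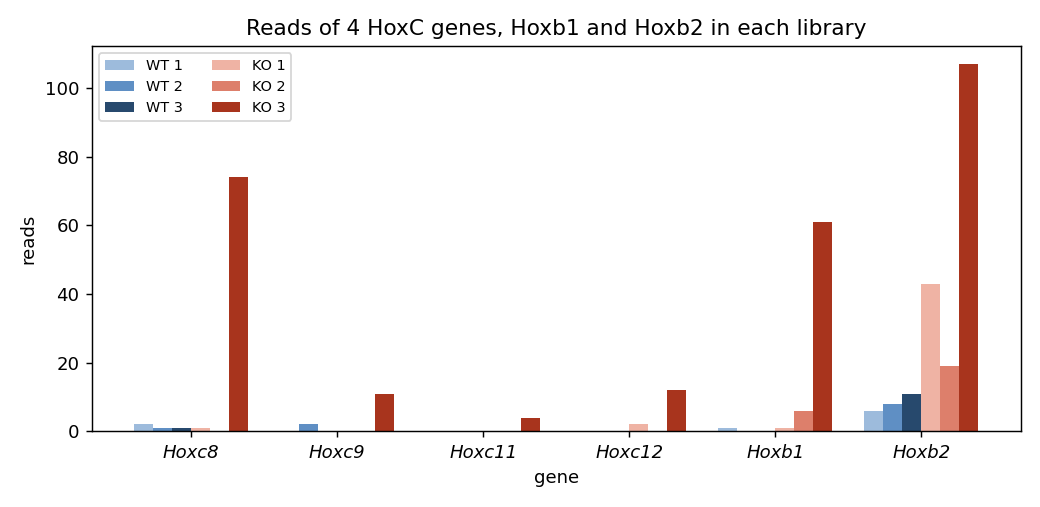
Reads of Hoxc8, Hoxc9, Hoxc11, Hoxc12, Hoxb1 and Hoxb2 in each library, with 3 bars for the wild-type and 3 for the knockout label. KO 3 had 74 reads of Hoxc8 and 61 of Hoxb1, where no other library had more than 2 and 6, and Hoxb2 had 107 reads in KO 3 against 6 to 43 elsewhere.

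Transcripts beside the coding genes of the clusters were described from the other rows in the clusters or within 10000 bases of their ends, which were chosen after the member values were known. Of 52 such rows, 15 were tested, of which 0 passed with edgeR, 6 lay below and 1 above all wild-type libraries, where 17.3% and 15% of all genes lay. Hottip, a noncoding RNA next to Hoxa13 (chromosome 6, 52262775 to 52267603), was at 6.54, 40.2 and 13.2 CPM (WT) and 0.741, 1.6 and 0 CPM (KO). The log2 ratio came to -4.63 ± 1.18 SE. Gm53, a noncoding RNA between Hoxb13 and Hoxb9 (chromosome 11, 96251105 to 96264868), was at 11.9, 64.2 and 21.4 CPM (WT) and 0.939, 2.06 and 0 CPM (KO). Its log2 ratio was -4.98 ± 1.18 SE. Both had 0 reads in KO 3. Their edgeR adjusted p was 0.107 and 0.10, and in both the labels did not overlap. Reads on the locus of Mir196a-1, which lies just past Gm53, numbered 33, 117 and 42 in WT 1 to WT 3 and 3, 3 and 0 in KO 1 to KO 3, and poly-A libraries do not measure the mature microRNA. At the other end of cluster A, the noncoding RNA Hotairm1 was at 1.49, 1.33 and 0.944 CPM (WT) and 2.42, 3.49 and 14.8 CPM (KO) (log2 ratio 2.45 ± 0.76 SE), above all wild-type libraries and highest in KO 3. Evx2, the homeobox gene beyond Hoxd13, was at 3.8, 8.16 and 5.72 CPM (WT) and 6.52, 4.75 and 0.777 CPM (KO), with overlap.

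The sequence before the start of the genes was searched for TTTAT or its reverse complement ATAAA, the core that the caudal factors Cdx1 and Cdx2 bind. RefSeq windows for GRCm38.p6 were found for 22 of the 39 symbols. The 250 bases upstream of the start are shown for the group 13 members found there, with matches in capitals.
Hoxa13, chr6:52260881-52261130, minus strand: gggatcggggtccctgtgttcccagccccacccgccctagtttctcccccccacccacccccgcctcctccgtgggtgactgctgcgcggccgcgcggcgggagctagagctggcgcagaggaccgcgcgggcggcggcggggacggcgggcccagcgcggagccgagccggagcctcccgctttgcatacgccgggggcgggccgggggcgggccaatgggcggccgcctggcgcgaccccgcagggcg
Hoxd13, chr2:74667975-74668224, plus strand: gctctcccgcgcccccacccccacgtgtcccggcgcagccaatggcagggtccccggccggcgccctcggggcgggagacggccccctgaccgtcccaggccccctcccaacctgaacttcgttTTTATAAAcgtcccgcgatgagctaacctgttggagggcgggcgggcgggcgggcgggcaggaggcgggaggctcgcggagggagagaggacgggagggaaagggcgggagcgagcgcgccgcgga
Hoxd13 held 2 matches, which overlap each other, and Hoxa13 held 0. Over the 24 windows of Hox genes 9 held the motif, against 37.3% of all 32851 windows of that length. A match in this short window is a description of the letters.

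The caudal genes themselves, which act upstream of Hox genes in the embryo, were low in the same libraries as Hoxb13 and the epithelium markers. A link between caudal and Hox levels was not tested, nor was the part of the lower epithelium markers in either. Cdx1 was at 162, 550.2 and 286 CPM (WT) and 11.2, 49.6 and 0.933 CPM (KO), a log2 difference of -4.01 ± 1.27 SE (edgeR adjusted p = 0.136, DESeq2 0.0011). Cdx2 was at 16.6, 54.4 and 32.7 CPM (WT) and 4.25, 12.2 and 0.0777 CPM (KO). The log2 ratio came to -2.64 ± 1.17 SE. In both, the libraries labelled knockout lay below all wild-type libraries. Cdx4, Gsx1 and Gsx2 had 0 reads, and Pdx1 had reads in WT 1 and WT 3 alone.

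Among 16 transcription factors of gut regions with a row in the table, 0 of 11 tested passed with edgeR, and 2 were higher and 4 lower at an unadjusted p under 0.05, against 11.8% and 12.3% of all genes. Gata6 and Hnf4g had log2 ratios of -1.80 ± 0.31 SE and -3.69 ± 0.70 SE. Osr2, known from embryonic mesenchyme, went the other way, at 1.43, 0.949 and 1.42 CPM (WT) and 5.58, 5.15 and 6.06 CPM (KO) (log2 ratio 2.14 ± 0.41 SE, edgeR adjusted p = 0.094, DESeq2 0.0013). Prac1 was not analysed here.

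Of 9 genes of the Pbx, Meis and Pknox families, whose proteins bind DNA together with Hox proteins, 0 passed with edgeR and 3 were higher at an unadjusted p under 0.05, where 11.8% of all genes were. The log2 ratio was positive in 7 of the 9, with a median of 0.53. Pbx3 was at 20.03, 16.6 and 26.1 CPM (WT) and 37, 34.7 and 31.3 CPM (KO) (log2 ratio 0.71 ± 0.26 SE). Meis2 was at 29.3, 18 and 34.4 CPM (WT) and 55.3, 50.6 and 36.1 CPM (KO) (log2 ratio 0.80 ± 0.32 SE). Pbx4 was at 0.475, 0.38 and 0.649 CPM (WT) and 1.14, 1.83 and 2.1 CPM (KO) (log2 ratio 1.73 ± 0.54 SE). These 3 and Meis3 (log2 ratio 0.53 ± 0.26 SE) lay above all wild-type libraries, as did 15% of all genes.

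Of the retinoic acid pathway, which turns on anterior Hox genes in the embryo, 13 of 15 tested genes had positive log2 ratios (median 0.72, against 0.061 over all genes). At an unadjusted p under 0.05, 4 were higher and 0 lower (11.8% and 12.3% of all genes), and 0 passed after adjustment with edgeR. The retinoic acid producing enzyme genes Aldh1a2 and Aldh1a1 had log2 ratios of 1.34 ± 0.36 SE and 1.29 ± 0.39 SE, and the receptor gene Rarg one of 0.67 ± 0.25 SE. These 3 lay above all wild-type libraries, as did 5 of the 15 in all and 15% of all genes. The chromatin regulators of the Polycomb and Trithorax groups, which keep Hox genes off or on, were 11 positive and 12 negative of 23 tested, with a median of -0.013. Bmi1 had a log2 ratio of 0.84 ± 0.26 SE and was the 1 gene of that list with an unadjusted p under 0.05 (24.1% of all genes), and Jarid2 had one of -0.59 ± 0.27 SE.

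Marker lists of the tissue's cell types differed between the labels in the same libraries. All 10 epithelium markers were negative, with a median log2 ratio of -2.62, and 9 lay below all wild-type libraries, where 17.3% of all genes lay. Median log2 ratios were 1.60 for the neuron and glia markers and 1.27 for the endothelium markers, all 10 positive in each list. The fibroblast markers had a median of 0.98, with 9 of 10 positive. The summed fibroblast markers were at 2068, 1605 and 2766 CPM (WT) and 7232, 4486 and 5333 CPM (KO). In KO 3 the proteoglycan gene Dcn made up 3515 CPM of that sum, and without Dcn the sums were 1558, 1343 and 2272 (WT) and 4651, 3411 and 1818 (KO), with KO 3 inside the wild-type range. The summed neuron and glia markers were at 235, 152 and 281 CPM (WT) and 771, 359 and 1163 CPM (KO). The smooth muscle markers had a median of -0.24, and the labels overlapped in all 10. Per 1000 CPM of the fibroblast markers, Hoxb5 was at 3.36, 4.81 and 4.71 (WT) and 4.22, 3.16 and 4.62 (KO). Hoxd8 was at 2.13, 1.7 and 1.3 (WT) and 1.07, 1.75 and 2.64 (KO) (exact permutation p = 0.5 and 0.9). The values of KO 3 rest on Dcn: without it Hoxb5 was at 4.46, 5.75 and 5.74 (WT) and 6.56, 4.16 and 13.6 (KO). Hoxd8 was then at 2.82, 2.03 and 1.58 (WT) and 1.67, 2.3 and 7.74 (KO), with KO 3 highest and the labels overlapping in both. Per 1000 CPM of the neuron and glia markers, Hoxb5 was at 29.6, 50.9 and 46.4 (WT) and 39.5, 39.5 and 21.2 (KO). Hoxd8 was at 18.7, 17.9 and 12.8 (WT) and 10.1, 21.8 and 12.1 (KO) (exact permutation p = 0.5 and 0.6). The groups overlapped in all 4 of these ratios, but each divides a gene above all wild-type libraries by a marker sum that was so too. Such a division can give overlap whatever the cause, so nothing is concluded from it. The squamous markers of the anorectal lining summed to 2.47 to 4.49 CPM, with Krt4 and Sprr3 at 0 in all libraries, and the small intestinal markers to 15.8 to 245 CPM. The skeletal muscle markers summed to 98.1 CPM in KO 2 and 5.93 to 19.8 CPM in the others, with Myog at 0 in all libraries, and the actin gene Acta1 made up 89.1 CPM of the value in KO 2. The adipocyte markers summed to 259 to 917 CPM, and in KO 3, the highest, Fabp4 made up 839 CPM. The part of cell make-up in the Hox differences was not tested.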

How the data were processed

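RNA from distal colon was purified on poly-T beads and sequenced, per the labels' protocols. The authors deposited a table of read counts per gene, with gene length, position and biotype beside them. The submitters' processing notes name featureCounts 1.5.0-p3, HISAT2 2.0.5, DESeq2 and StringTie 1.3.3b, with the builds GRCm38 and mm10, and the strand setting of the counting is not given in the sources used here.

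From the deposited counts, genes were filtered with filterByExpr of edgeR 4.0.16 (minimum count 10, minimum total 15), scaled by TMM and tested between the labels with edgeR's quasi-likelihood test (the earlier, robust form, R 4.3.3), with Benjamini-Hochberg adjustment over all 16861 genes tested and a threshold of 0.05. All 6 libraries, 3 for each label, entered the fit with no covariate. DESeq2 1.42.0, limma 3.58.1 (voom), other scalings and filters, a replicate block and leaving out each library were run as alternatives, and the newer quasi-likelihood form of edgeR and sums without single marker genes were added after the data were seen. Ratios within libraries were compared by exact two-sided permutation tests, adjusted over the 10 whose overlap the choice of genes did not fix. The script was tested on simulated data: with the spread of these libraries and 16513 genes it recovered 0 of 69 genes given a 2-fold change, 13 of 56 at 4-fold and 48 of 72 at 8-fold. Within a label no pair of libraries agreed within sampling noise (chi-square per degree of freedom 50.7 to 253).

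Members, gene lists and tests were chosen with earlier results of these data known. The rule for named genes gave values per library for members with a mean of at least 1 CPM or an unadjusted p under 0.05, and named up to 4 genes with the smallest p from each list of cofactors and regulators. Of marker lists it allowed sums, counts and genes at 0, so Lct, Sis, Gata4, Slc5a1, S100a8, S100a9, Dcn, Acta1, Fabp4, Svs2, Svs4, Svs5 and Pbsn, and the noncoding rows of the clusters, were chosen after their values were seen. Of 183 list genes 182 had a row. Promoter windows are RefSeq's for GRCm38.p6. Some genes of the family and of the lists are not reported here by name, and their values stay in the counts and sums.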

Additional observations from a re-analysis of the deposited data

How the results depend on the processing

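The count of Hox genes called was 0 under both other scalings, both other filters, limma-voom and the newer edgeR fit. It was 10 with DESeq2 and 3 with voom quality weights (Hoxa11, Hoxa13 and Hoxb13), and 0 to 3 with 1 library left out, the 3 without KO 2. Over all genes the edgeR count of 0 became 192 without a filter, 2034 with DESeq2, 1395 with quality weights and 0 to 1813 with 1 library left out, again highest without KO 2. The cause of these changes was not tested. The median Hox log2 ratio of -0.27 became 0.053 with at least 10 reads in every library, where 21 members are left, and -0.56 to 0.047 with 1 library left out (-0.56 without WT 1, 0.047 without WT 2). At least 25 of 26 members kept their sign under every alternative that tested 26, and 21 of 21 under the stricter filter. The exception was Hoxa5, at -0.0099 without a filter, -0.24 to 0.36 with 1 library left out (-0.24 without WT 1, -0.044 without KO 1 and -0.21 without KO 3). Beyond the values beside each gene, limma-voom gave -2.87 for Hoxa6 and 2.28 for Hoxb2, quality weights -4.93 for Hoxb13 and 1.95 for Hoxb2, and the replicate block -5.08 for Hoxb13. Upper-quartile scaling shifted the median of all genes from 0.061 to 0.21. The mean share of group 13 in the wild-type libraries was 65.9% without division by length and 79.3% over genes with no shared exon bases, and 67.7 to 71.5% with 1 library left out. Under the knockout label it was 21.1 to 36.2% with 1 library left out.

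Replicates carry the numbers 1 to 3 under both labels. Deviations of same-numbered libraries from their group means correlated at -0.20, 0.087 and -0.075, and 1 of 3 libraries labelled WT correlated best with its own number. So few correlations cannot tell whether same-numbered libraries share more than the number. With the replicate block edgeR called 0 Hox genes and 3 genes of all, and the median Hox log2 ratio was -0.21.

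Counts of 13326970 to 18321389 per library left 14 members without a test, and Hox genes at 0 reads were not detectable at this depth. Floors cover counting error only, while the intervals of the log2 ratios include the spread between libraries.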
